A study of Mus musculus with 6 samples.

Results

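The cytokines with which dendritic cells (DCs) steer T cells were compared between mannose receptor (MR) positive and MR-negative DCs grown from mouse bone marrow. The set was fixed by name as 9 genes, Il12a, Il12b, Il23a, Il27, Ebi3, Il6, Il10, Il15 and Il15ra, and its members were all array probes annotated with 1 of these symbols. Of the 19057 genes with a probe, 8 were members, carried by 17 of 34885 probes with a single gene, and Il12b had no probe in the annotation used here. Mouse bone marrow cells had been cultured with the growth factor GM-CSF for 1 week and then given ovalbumin carrying a fluorescent dye, ovalbumin being a glycoprotein that the mannose receptor takes up. Cells sorted as MR-positive (3 arrays) and as MR-negative (3 arrays) were lysed straight after the sort, and their RNA was hybridised to Illumina bead arrays. Both populations had thus met ovalbumin, GM-CSF and the sort, and the labels name no microbial stimulus, strain, age or sex. The array titles carry the numbers M1, M2 and M3 in each population, without saying whether these are mice, cultures or days, so the p-values reflect how far these arrays differed among themselves, a spread that may be technical.

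Dendritic cells show antigen to T cells and release, at the same time, cytokines that decide which effector T cell forms. The interleukin-12 family is built of paired chains: Il12a with Il12b gives IL-12, which drives Th1 cells, Il23a with Il12b gives IL-23, which sustains Th17 cells, and Il27 with Ebi3 gives IL-27, which acts early on naive T cells and can also restrain inflammation. Il6 favours Th17 over regulatory T cells, Il10 dampens DCs and T cells, and IL-15 is shown to CD8 T cells and NK cells while bound to Il15ra on the DC surface. In DCs most of these genes are known to stay low until microbial products or CD40 switch them on.

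In these DCs Ebi3 and Il15 were the cytokine signals seen on every array, Il6 was seen on 5 of 6, and no measured chain of IL-12, IL-23 or IL-10 gave a signal on more than 1 array. Ebi3 was 1.35-fold higher and Il6 1.87-fold lower in MR-positive than in MR-negative cells, and after normalization the arrays of the populations did not overlap for either gene. With the population as the single term of the fit, 0 of the 5 member genes tested passed an adjusted p of 0.05 (limma), where 15.3% of all 9370 genes tested passed, 8.19% as higher and 7.13% as lower in MR-positive cells. With the title number as a block, Ebi3 passed as higher and Il6 as lower, where 16.4% of all genes passed as higher and 13.6% as lower, together 30.0%. The block takes arrays of the same title number as pairs, which is uncertain for M2 and M3, as the processing section sets out. By probe, 2 of the 8 member probes passed with the block and 0 without it, where 27.7% and 13.8% of all 16686 probes did. At an unadjusted p of 0.05 the member count was also 2 of 5, or 40%, against 29.3% of all genes. Non-overlapping populations, likewise 2 of 5 members, occurred in 34.6% of all genes, 18.9% with MR-positive cells higher and 15.6% with them lower. The 5 genes had a median log2 difference of -0.08, against 0.02 over all genes tested, and a median absolute difference of 0.19, against 0.22. With 5 genes, nothing about the set as a whole is read from these shares.

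A probe was called detected where its signal exceeded that of the negative controls of its array with a detection p under 0.05, and it was tested where this held on at least 3 of the 6 arrays. Of the 17 member probes, 4 were detected on all 6 arrays, 4 on 3 to 5 arrays, 2 on 1 or 2 arrays and 7 on none. The lowest intensity of a detected probe, in arbitrary units before normalization, was 32.6, 33.5 and 32.2 on the MR-positive arrays M1, M2 and M3 and 35.7, 34.2 and 35.1 on the MR-negative ones, so a value near 30 is background. The median probe lay at 27.6 to 30.3 units, and 15988 to 16641 probes were detected per array. Below, a normalized level is log2 of the background-corrected, quantile-normalized intensity with an offset of 16 added, which shrinks the differences of dim probes. A difference is MR-positive minus MR-negative on that scale, given with its fitted standard error.

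**Figure D1:**
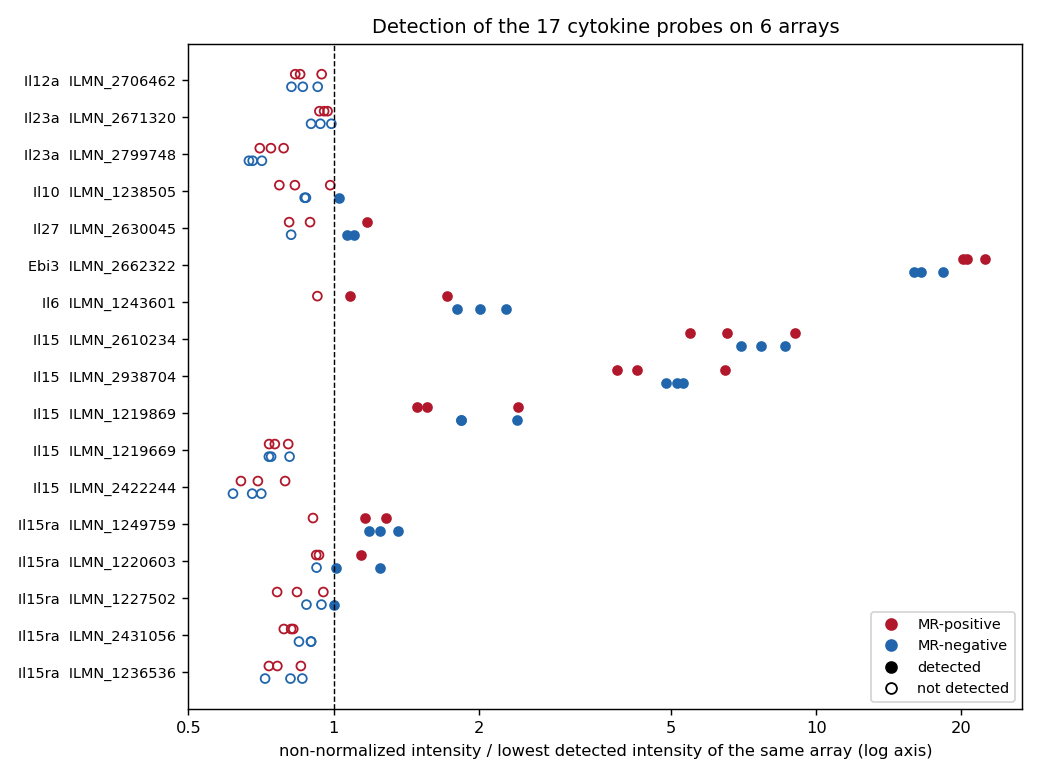
Non-normalized intensity of each of the 17 cytokine probes on the 6 arrays, divided by the lowest intensity of a detected probe on the same array (log axis, dashed line at 1). Red points are MR-positive and blue points MR-negative arrays, and filled points were detected. Ebi3 and 3 Il15 probes lie right of the line on all 6 arrays, and the probes of Il12a and Il23a lie left of it on all 6.

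The sort and the cell type were checked first. Mrc1, the gene of the mannose receptor, was higher in the MR-positive population, by 6.21-fold (log2 difference 2.64 ± 0.39, adjusted p = 0.0051, limma), and its adjusted p was 0.118 with both M3 arrays left out. Of 8 DC markers, 7 were detected on at least 3 arrays, and Flt3 was detected on none. The summed normalized level of the DC markers was 16665 to 21056 units on the MR-positive and 29087 to 34110 on the MR-negative arrays. Bright genes carry most of such a sum, and of the 7 DC genes tested 1 passed as higher and 4 as lower in MR-positive cells. The sum of 8 macrophage markers, all detected, was 8914 to 9793 on the MR-positive and 6407 to 8140 on the MR-negative arrays. Of these 8, 2 passed as higher and 0 as lower without the block, and 4 and 1 with it. For 9 T cell markers the sum was 353 to 466 on the MR-positive and 2208 to 3975 on the MR-negative arrays, with Cd4, Cd8a, Cd247 and Trat1 detected on none. For 7 NK cell markers the sum was 68.3 to 120 on the MR-positive and 400 to 1539 on the MR-negative arrays, with Ncr1, Klrb1c, Nkg7 and Eomes detected on none. Only 3 T cell and 3 NK cell genes were tested, and 2 of each passed as lower. The sum of 7 neutrophil markers overlapped, at 3077 to 5432 on the MR-positive and 5114 to 17281 on the MR-negative arrays, and 0 of its 7 genes passed without the block and 6 were lower with it. Sums of the other 6 marker lists (monocytes, B cells, plasma cells, mast cells and basophils, plasmacytoid DCs, red cell precursors) overlapped as well. The part of these markers in the results below was not tested, and in sorted bulk samples fewer cells of a type and less RNA per cell cannot be told apart.

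Ebi3 and Il6 are the members whose normalized populations did not overlap, and the 250 bases of RefSeq before the annotated start of each (build GRCm38.p6, plus strand, Ebi3 chr17:55952373-55952622 and Il6 chr5:30012864-30013113) are shown for that reason. Capitals mark matches, on either strand, to the NF-kB consensus, to AP-1 (TGANTCA) or to C/EBP (TTGCNNAA), and no 2 different motifs overlapped.
Ebi3: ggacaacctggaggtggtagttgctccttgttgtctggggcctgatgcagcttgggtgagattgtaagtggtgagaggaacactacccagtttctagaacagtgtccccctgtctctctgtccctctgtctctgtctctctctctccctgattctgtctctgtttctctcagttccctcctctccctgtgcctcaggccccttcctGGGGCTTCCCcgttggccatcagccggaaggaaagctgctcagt
Il6: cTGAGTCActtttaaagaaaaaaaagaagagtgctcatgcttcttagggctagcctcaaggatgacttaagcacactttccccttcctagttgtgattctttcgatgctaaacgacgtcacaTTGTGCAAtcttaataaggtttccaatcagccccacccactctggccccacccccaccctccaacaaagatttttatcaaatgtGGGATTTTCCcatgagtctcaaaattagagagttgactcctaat
The Ebi3 window held 1 NF-kB match, GGGGCTTCCC, at positions -44 to -35 from the start. The Il6 window held an NF-kB match, GGGATTTTCC, at the same positions, a C/EBP match on the minus strand at -128 to -121 and an AP-1 match, whose letters read as the motif on both strands, at -249 to -243. Of 32851 windows of this length before RefSeq starts, 3.899% held the NF-kB consensus, 6.749% the AP-1 and 9.564% the C/EBP motif on either strand. The STAT motif TTCNNNGAA, found in 7.02% of all windows, the interferon-stimulated response element of IRF factors, in 2.977%, and the composite ETS-IRF element, in 2.301%, had no match in these 2 windows, which says only that these letters are not there. Windows were at hand for 5 of the 9 members, and the others among them held no match except a downstream start of Il15ra, with AP-1 at -30 to -24. These matches are descriptions of letters, not binding sites.

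Ebi3 encodes the beta chain that IL-27 shares with IL-35. Its intensity (probe ILMN_2662322) was 729.8, 687.9 and 647.8 units on the MR-positive arrays M1, M2 and M3, against 653.2, 546.0 and 578.4 on the MR-negative arrays. Before normalization the lowest MR-positive array thus lay just under the highest MR-negative one. After normalization the levels were 9.57, 9.45 and 9.51 in MR-positive cells and 9.26, 8.95 and 9.03 in MR-negative cells, and every MR-positive array was above every MR-negative one. The means were 9.51 ± 0.058 in MR-positive and 9.08 ± 0.16 in MR-negative cells (SD, n = 3 arrays each), a log2 difference of 0.43 ± 0.13 with a 95% interval of 0.13 to 0.73. The adjusted p of this difference was 0.068 (limma), and with the title number as a block it was 0.021, with a 95% interval of 0.18 to 0.68. Within the title numbers the difference was 0.31 for M1, 0.50 for M2 and 0.48 for M3. Its sign there follows from populations that do not overlap and adds no support. The fitted difference was smaller when arrays were set to equal medians instead of equal distributions, at 0.27 with an adjusted p of 0.23 (limma). That scaling put the median difference of the 16686 probes tested at -0.11, against 0.02 in the quantile scaling. Relative to that median the Ebi3 difference was 0.38 with equal medians and 0.41 with quantile scaling. This re-centring takes back part of the scaling and is no further test of Ebi3. Ebi3 passed, with a log2 difference of 0.52 and an adjusted p of 0.037, without the MR-negative M1 array, at 0.50 and 0.032 without both M1 arrays, and at 0.41 and 0.036 with an offset of 50 in place of 16 (limma). Over the genes tested, 73.5% had a smaller absolute difference than Ebi3.

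Il27, the alpha chain that joins Ebi3 in IL-27, was close to background. Its intensity was 38.2, 30.0 and 26.0 units in MR-positive cells, against 38.0, 37.6 and 28.7 in MR-negative cells. It was detected on 1 of 3 MR-positive arrays (M1) and 2 of 3 MR-negative arrays (M1 and M2), and no order between the populations can be read from these values. The normalized levels were 4.82, 4.36 and 4.24 in MR-positive and 4.62, 4.69 and 4.25 in MR-negative cells. The log2 difference was -0.05 ± 0.19, with a 95% interval of -0.50 to 0.41 and an adjusted p of 0.91 (limma). Of the IL-27 pair 1 chain was seen on every array and the other on 3 of 6.

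Of the chains of IL-12 and IL-23, Il12a and Il23a were not detected on any array. Il12a, the p35 chain of IL-12, had intensities of 30.8, 27.9 and 27.4 units in MR-positive and 29.2, 29.5 and 32.6 units in MR-negative cells, and its detection p lay between 0.0876 and 0.307. Il23a, the p19 chain of IL-23, had 2 probes. The first (ILMN_2671320) gave 31.2, 31.3 and 31.3 units in MR-positive and 33.5, 33.8 and 31.5 units in MR-negative cells, with a detection p of 0.0598 to 0.152, so that it missed the detection threshold narrowly on some arrays. The second (ILMN_2799748) lay lower within the background, with a detection p of 0.515 to 0.904. Il12b, the shared p40 chain, was not analysed here, so neither IL-12 nor IL-23 can be described as a pair. Signals at background do not show that a transcript is absent, and no difference is given for these genes.

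Il10, the cytokine that restrains DCs and T cells, was detected on 1 array, MR-negative M2. Its intensities were 32.1, 25.9 and 26.8 units in MR-positive cells, against 31.1, 35.1 and 30.8 units in MR-negative cells. The MR-positive M1 value was within the MR-negative range, and the other MR-positive values lay below it. The detection p was 0.058, 0.516 and 0.314 on the MR-positive and 0.178, 0.0385 and 0.196 on the MR-negative arrays.

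Il6, an inflammatory cytokine that signals through the gp130 chain encoded by Il6st, had low intensities throughout. They were 56.0, 31.0 and 34.8 units on the MR-positive arrays M1, M2 and M3 and 81.4, 61.6 and 70.5 units on the MR-negative arrays. Before normalization every MR-positive array was below every MR-negative one, but the background was also lower on the MR-positive arrays. Divided by the lowest detected intensity of the same array, the nearest values were 1.72 (MR-positive M1) and 1.80 (MR-negative M2). Il6 was detected on 2 of 3 MR-positive arrays and on 3 of 3 MR-negative arrays, and the MR-positive M2 value, with a detection p of 0.107, was not told apart from background.

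The normalized Il6 levels were 5.51, 4.41 and 4.73 in MR-positive cells and 5.94, 5.61 and 5.80 in MR-negative cells. MR-positive M1 stood close to the MR-negative arrays, and M2 and M3 lay further below. The means were 4.88 ± 0.56 in MR-positive and 5.78 ± 0.17 in MR-negative cells (SD, n = 3 arrays each), and the log2 difference was -0.90 ± 0.27 with a 95% interval of -1.53 to -0.27. The adjusted p was 0.070 (limma), and with the title number as a block it was 0.0061, with a 95% interval of -1.28 to -0.53. Within the title numbers the difference was -0.44 for M1, -1.20 for M2 and -1.07 for M3, the sign again following from populations that do not overlap. Without the MR-positive M1 array the difference was -1.21 with an adjusted p of 0.0073, and without both M1 arrays it was -1.10 with an adjusted p of 0.0036 (limma). With an offset of 50 in place of 16 it was -0.47, with an adjusted p of 0.084. Of the genes tested, 91.4% had a smaller absolute difference than Il6.

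**Figure D2:**
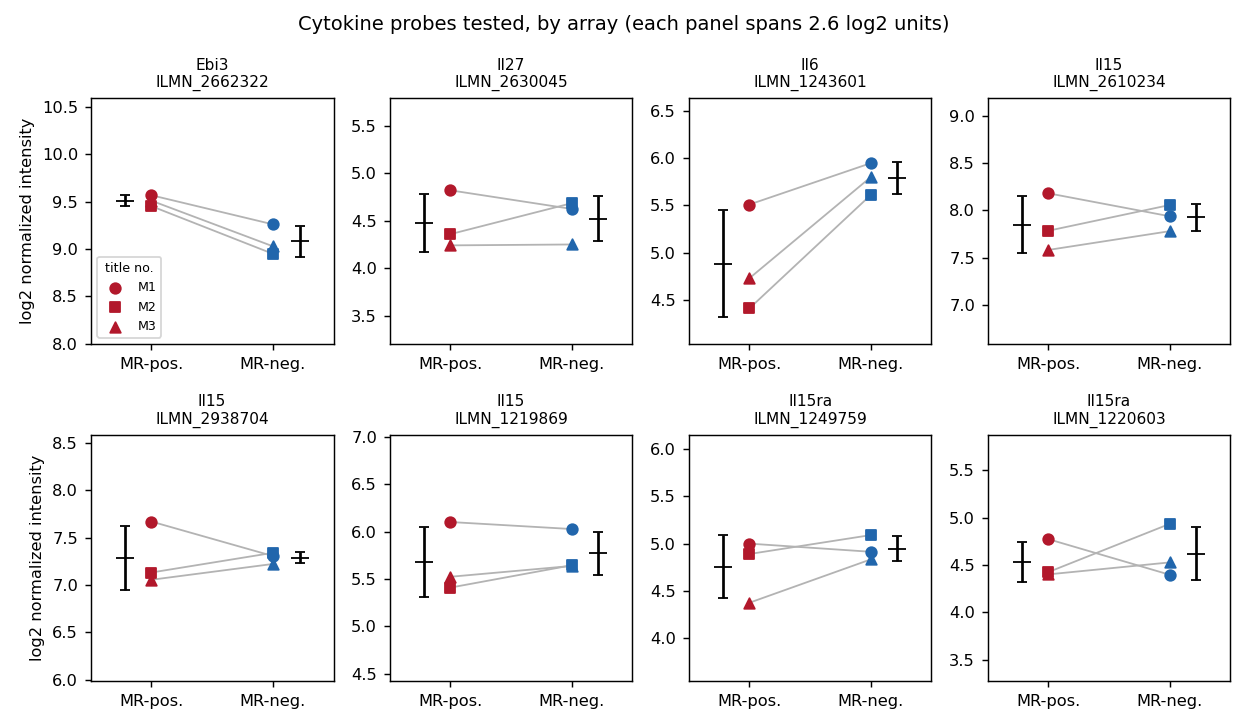
Normalized level (log2 intensity) of the 8 cytokine probes tested, by array, with MR-positive arrays in red at the left and MR-negative arrays in blue at the right of each panel. Symbols give the title numbers M1 to M3, grey lines join arrays of the same number, and black bars give the mean and SD of 3 arrays. The Ebi3 points of MR-positive cells all lie above, and the Il6 points all below, those of MR-negative cells, and the other panels overlap.

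Il15, whose product sustains NK cells and memory CD8 T cells, had 5 probes, of which 3 were detected on all 6 arrays. The brightest (ILMN_2610234) gave 294.2, 219.0 and 176.7 units in MR-positive cells, against 274.3, 293.9 and 245.6 units in MR-negative cells. The next (ILMN_2938704) gave 211.6, 142.8 and 124.5 units in MR-positive cells and 184.1, 180.7 and 171.5 units in MR-negative cells. On both probes the MR-positive arrays spread more widely, with M1 highest and M3 lowest, and overlapped the MR-negative arrays. The third (ILMN_1219869) gave 78.7, 49.9 and 50.4 units in MR-positive cells and 85.6, 62.7 and 64.4 units in MR-negative cells. Here M1 was the highest array of both populations, and the ranges overlapped.

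After normalization the 3 Il15 probes gave log2 differences of -0.08 ± 0.18, -0.004 ± 0.18 and -0.09 ± 0.21, with adjusted p-values of 0.84, 0.99 and 0.84 (limma). The 95% interval of the brightest probe ran from -0.49 to 0.34, so a difference in either direction within that range is left undecided. With the title number as a block none of the 3 passed either. Within M1 the brightest probe was higher in the MR-positive array, by 0.24, while within M2 and M3 it was lower there, at -0.27 and -0.20. The other 2 Il15 probes, ILMN_1219669 and ILMN_2422244, were detected on no array, with a detection p of at least 0.337 and 0.433. ILMN_1219669 is annotated to another transcript record than the 3 detected probes, and ILMN_2422244 to the same one. Not every probe of this gene thus gave a signal.

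Il15ra, the receptor chain that carries IL-15 to the cell surface, also had 5 probes, and none was detected on all 6 arrays. The best detected (ILMN_1249759) gave 41.9, 38.9 and 29.2 units in MR-positive and 44.7, 46.3 and 41.6 units in MR-negative cells, and it was seen on 2 of 3 MR-positive and 3 of 3 MR-negative arrays. A further probe (ILMN_1220603) gave 37.2, 31.3 and 29.6 units in MR-positive and 32.9, 42.5 and 35.5 units in MR-negative cells, and it was seen on 1 of 3 MR-positive and 2 of 3 MR-negative arrays. The normalized populations overlapped on both. Their log2 differences were -0.19 ± 0.18 and -0.09 ± 0.18, with adjusted p-values of 0.58 and 0.82 (limma) and 95% intervals of -0.62 to 0.24 and -0.51 to 0.34. Of the remaining 3 probes, ILMN_1227502 was detected on MR-negative array M2 with a detection p of 0.049 and on no other, and ILMN_2431056 and ILMN_1236536 were detected on none.

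Among the 8 tested probes, which stand for 5 genes, the level of the MR-positive M1 array was above the mean of M2 and M3 for 8, by 0.09 for Ebi3 up to 0.94 for Il6. In MR-negative cells M1 was above that mean for 6 of 8 probes, with differences of -0.33 to 0.39. The share over all probes tested was not taken, so nothing particular to these genes is read from these counts. The SD over the 3 MR-positive arrays was largest for Il6, at 0.56, and smallest for Ebi3, at 0.058, among the 8 probes.

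**Figure D3:**
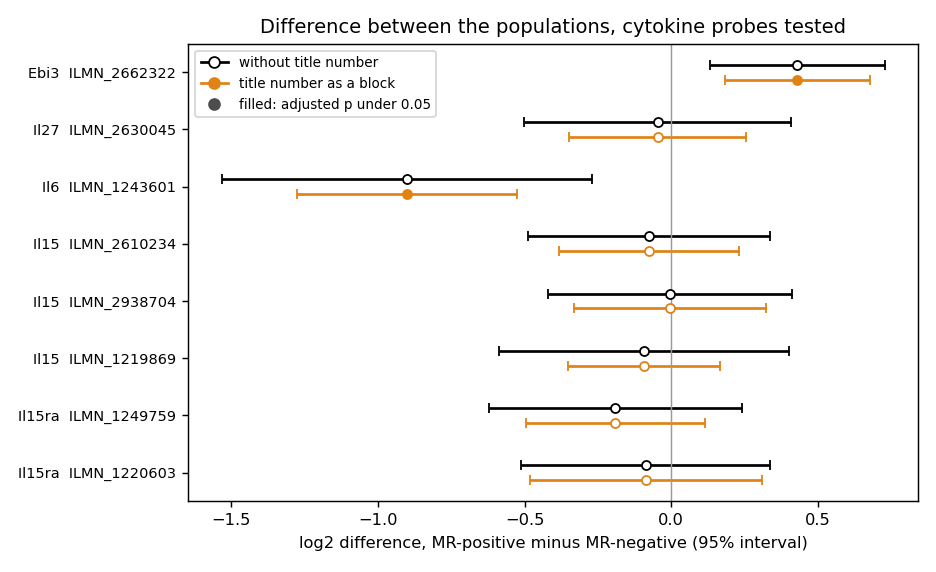
Log2 difference, MR-positive minus MR-negative, of the 8 cytokine probes tested, with 95% intervals from the fit without the title number (black) and with it as a block (orange), and filled points for an adjusted p under 0.05. Filled points occur for Ebi3 at 0.43 and Il6 at -0.90, both with the block, and the intervals of the other 6 probes include 0 in both fits.

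The genes around these cytokines were read from 8 lists with 85 genes, of which 58 were tested. In all, 5 passed (adjusted p under 0.05, limma) with a higher and 13 with a lower level in MR-positive cells, or 31.0%, against 15.3% of all genes, with a median difference of 0.01. With the title number as a block 29 passed, among them 3 receptors, 4 sensing genes and 2 further DC cytokines higher and 4 surface ligands lower, where 30.0% of all genes passed, 16.4% as higher and 13.6% as lower. The lists were chosen with earlier results of these data known, so nothing about the pathway as a whole is read from these shares. The counts include Card9, Cd70 and, with the block, Il27ra, which met the detection filter through a single population. Without MR-positive M2, MR-positive M3, MR-negative M2 or MR-negative M3 the counts over all lists were 10, 9, 10 and 9. Of the receptors for these cytokines 1 of 7 was higher, Il6st, the signal chain of the receptors for Il6 and IL-27, at 0.46 ± 0.12 with an adjusted p of 0.043. This call was lost without any 1 of the 6 arrays, with adjusted p-values of 0.0777 to 0.157, and with equal array medians. With the block, Il27ra, the specific chain of the IL-27 receptor, also passed (adjusted p = 0.017, against 0.079 without it). It was detected on all 3 MR-positive and on none of the MR-negative arrays. Il27ra was at least 1.28-fold higher on the scale with the offset of 16, with a fitted log2 difference of 0.53 there. The difference was 0.22, which is under that bound, with an offset of 50. Il27ra met the detection filter only through the MR-positive arrays, so its adjusted p-values are not read as support. It was named after its values were seen. So was Il10rb, at 0.45 with a block adjusted p of 0.032 and one of 0.16 without the block. A second Il10rb probe gave 0.23 with an adjusted p of 0.50 without the block.

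Of 7 receptor kinases and STATs, 3 were lower, 0 higher, and the list median was -0.54. Stat4, which relays the IL-12 signal, averaged 5.80 ± 0.092 in MR-positive and 9.40 ± 0.66 in MR-negative cells (SD, n = 3 arrays each), a difference of -3.59 ± 0.30 with an adjusted p of 5.0e-04. The T cell and NK cell marker sums given above were lower in the same arrays, and their part was not tested. Jak2, the kinase of the IL-12, IL-23 and GM-CSF receptors, was lower, at -1.37 ± 0.16 (adjusted p = 0.0017, limma). Stat5a, which relays GM-CSF and IL-15, was lower, at -0.95 ± 0.17 (adjusted p = 0.011, limma), with an adjusted p of 0.051 without MR-positive M2 and 0.056 without MR-positive M3, and its second probe gave -0.30 with an adjusted p of 0.27. Of 6 feedback and target genes 1 passed, Socs2, a STAT5 target that dampens cytokine receptors, at -1.24 ± 0.16 (adjusted p = 0.0029, limma). With the block Socs3, named after its values were seen, also passed, as higher, at 0.52 (adjusted p = 0.013, limma, and 0.31 without the block).

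Of 14 transcription factors known to act on the cytokine genes, 7 passed, 2 as higher and 5 as lower in MR-positive cells, and the median was -0.11. Irf8, a factor of Il12b transcription and DC development, was lower, at -1.43 ± 0.16 (adjusted p = 0.0017, limma), and Batf3, a factor of cross-presenting DCs, was also lower, at -1.20 ± 0.14 (adjusted p = 0.0016, limma). Rel, the NF-kB subunit c-Rel, was lower, at -1.01 ± 0.26 (adjusted p = 0.041, limma), and this call was lost when any single array but MR-negative M1 was left out, with adjusted p-values of 0.055 to 0.144. The other 4 that passed, named after their values were seen, were Relb at -0.80, Nfkb2 at -0.60, Irf7 at 0.66 and Cebpb at 0.51, with adjusted p-values of 0.025, 0.049, 0.028 and 0.027, and each lost its call when 1 of several arrays was left out. With equal array medians 0 factors were higher and 5 lower. Atf3, named after its values were seen, passed as higher with the block only, at 0.91 (adjusted p = 0.012, limma, and 0.39 without the block).

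Of 9 sensing receptors and adaptors upstream, 1 was higher and 2 lower, with a median of 0.30, and 4 were higher and 2 lower with the block. Clec7a, Syk and Tlr4 passed as higher with the block only, and were named after their values were seen. Clec7a was at 0.87 (adjusted p = 0.0015, limma, and 0.063 without the block). Syk was at 0.48 (adjusted p = 0.012, limma, and 0.27 without the block). Tlr4 was at 0.53 (adjusted p = 0.030, limma, and 0.25 without the block). Tlr7, a receptor for single-stranded RNA, was higher, at 1.01 ± 0.15 (adjusted p = 0.0058, limma). Card9, the adaptor of C-type lectin receptors, was detected on none of the MR-positive and all 3 MR-negative arrays, at least 3.97-fold lower on the scale with the offset of 16 (adjusted p = 1.4e-04, limma). Its fitted log2 difference was -2.17 there, -1.22 with an offset of 50 and -1.77 with the authors' normalized intensities, the last 2 being under that bound. Card9 met the detection filter only through the MR-negative arrays, and its MR-positive values are background. Its adjusted p is therefore not read as support for the difference. Cd40, through which T cells switch on DC cytokines, was lower, at -1.25 ± 0.26 (adjusted p = 0.019, limma), with adjusted p-values of 0.067 without MR-positive M3, 0.057 without MR-negative M2 and 0.079 without MR-negative M3, and 2 further probes gave -0.78 (adjusted p = 0.043, limma) and -0.51 (adjusted p = 0.080, limma).

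Of 9 surface ligands that steer T cells, 1 was higher and 2 lower, with a median of -0.27. Cd70, a costimulator of the CD27 receptor, was detected on none of the MR-positive and all 3 MR-negative arrays. It was at least 2.44-fold lower on the scale with the offset of 16 (adjusted p = 0.0026, limma). Its fitted log2 difference was -1.58 there and -0.79, which is under that bound, with an offset of 50. Cd70 met the detection filter only through the MR-negative arrays, so its adjusted p is not read as support either. Tnfsf4, the OX40 ligand linked to Th2 responses, was lower, at -1.52 ± 0.24 (adjusted p = 0.0064, limma). Cd274, the inhibitory ligand PD-L1, was higher, at 0.99 ± 0.19 (adjusted p = 0.0155, limma), with adjusted p-values of 0.068 without MR-positive M2 and 0.065 without MR-positive M3. With the block Cd86 and Pdcd1lg2, named after their values were seen, also passed as lower. Cd86 was at -1.26 (adjusted p = 2.4e-04, limma, and 0.060 without the block). Pdcd1lg2 was at -0.88 (adjusted p = 0.0022, limma, and 0.18 without the block). Of 5 further DC cytokines tested 0 passed without the block, and the smallest p in that fit was that of Tgfb1, which acts with Il6 on Th17 cells, at 0.40 ± 0.14 with an adjusted p of 0.117. With the block 2 passed as higher, Tgfb1 (adjusted p = 0.032, limma) and Cxcl10, a chemokine that attracts Th1 cells, at 0.64 (adjusted p = 0.0066, limma, and 0.42 without the block), which was named after its values were seen. Of the 10 cytokines that polarised T cells make, 1 could be tested, Il13, at 0.10 with an adjusted p of 0.73, and Ifng, Il2, Il4, Il5, Il9, Il17a, Il17f, Il21 and Il22 were detected on fewer than 3 arrays.

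**Figure D4:**
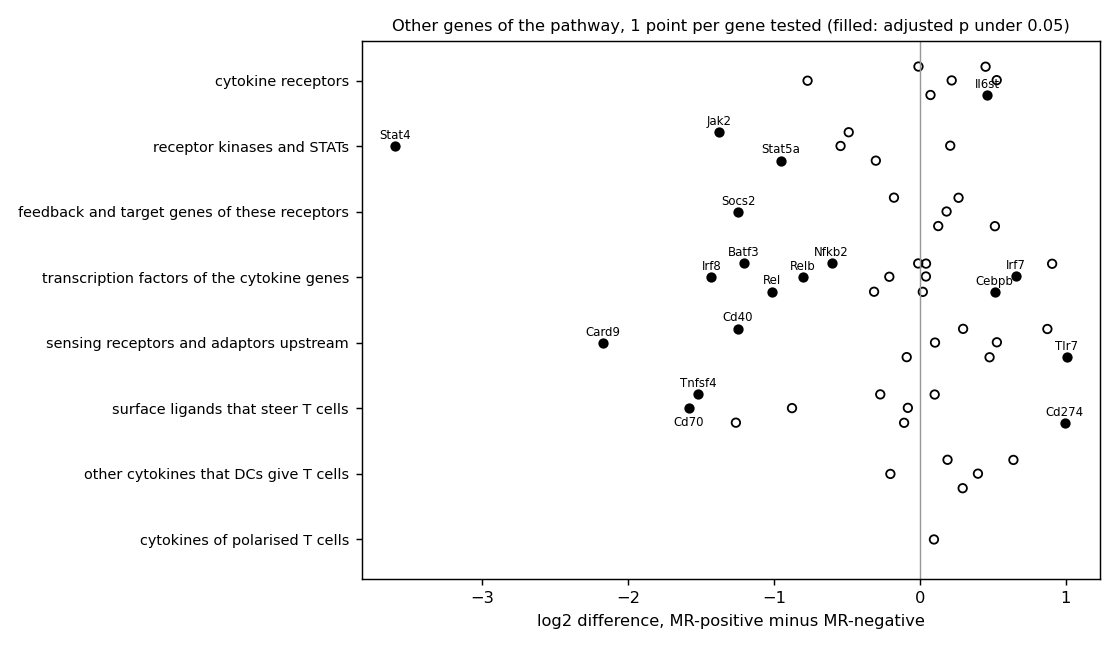
Log2 difference, MR-positive minus MR-negative, of the 58 tested genes of the 8 surrounding lists, 1 point per gene, with the vertical shift within a list used only to part the points. Filled and named points have an adjusted p under 0.05, 5 to the right of 0 and 13 to the left, with Stat4 farthest at -3.59, and Card9 and Cd70 are drawn at their fitted values although undetected in MR-positive cells.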

How the data were processed

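Per the labels, 3 MR-positive and 3 MR-negative samples were sorted, and biotinylated cRNA was made for Illumina arrays. The deposited non-normalized table gives the intensity of 45281 probes per array with, per the file headers, a p-value, read as a detection p because its steps are 1 in 936. The authors also deposited a table of quantile-normalized intensity, used as an alternative. The sources used here do not name the scanner or its software. With limma 3.58.1 in R 4.3.3, neqc corrected background, quantile normalized, added 16 and took log2 of the deposited intensities. Probes with a detection p under 0.05 on at least 3 arrays (16686) were fitted with lmFit and eBayes, two-sided, and adjusted by Benjamini-Hochberg over all of them. The number of arrays limits the precision. Each gene was represented by its tested probe of highest mean. Where a population was undetected on all its arrays, the fold is a lower bound set at the lowest detected level of each array. The code was tested on simulated data. The main fit had the population as its single term and no pairing. Within title numbers, array deviations correlated at 0.708 (M1), 0.569 (M2) and 0.275 (M3). The numbers were therefore taken to pair the samples, but only in the fits with the block. Unlike numbers M2 and M3 also correlated, at 0.290 and 0.382, both above the 0.275 of the M3 pair. Deviations were taken from the mean of the 3 arrays of a population. A pattern shared by the M1 arrays thus raises every correlation of M2 or M3 arrays between the populations. These values therefore cannot decide how the M2 and M3 arrays pair, which stays uncertain, and with it the fit with the block. Members and lists were chosen with earlier results of these data known. Named genes were all members, Mrc1 and, per list, up to 3 with the largest difference among those that passed, or the 1 with the smallest p. Genes most alike to a member were to be named for members that passed without the block, and there were none. Sequences are RefSeq's for GRCm38.p6.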

Additional observations from a re-analysis of the deposited data

How the results depend on the processing

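The 20 alternatives changed scaling, offset, filter, variance prior, block, the probe per gene and the arrays used. No alternative reversed Ebi3 (0.27 to 0.52, adjusted p 0.012 to 0.44) or Il6 (-1.21 to -0.47, adjusted p 0.0036 to 0.43), and 14 of 19 and 14 of 18 left them on the same side of the threshold. The member genes called were 0 without the block, 2 with the replicate block and 2 with it as a random term, 1 with an offset of 50, 2 without both M1 arrays and 0 to 1 when 1 array was left out. The block and the random term changed no other member's call. Of all 16686 probes 2298 passed, with 4628 under the replicate block, 4621 with it as a random term, 3074 without both M1 arrays, 386 without both M2 arrays, 160 without both M3 arrays, and 1013 to 2294 when 1 array was left out. Of the list genes 18 passed, with 29 under the replicate block, 22 without both M1 arrays, 4 without both M2 arrays, 1 without both M3 arrays and 9 to 17 when 1 array was left out. The cause of these changes was not tested. Signs turned only among differences that passed under no setting. Il15 probe ILMN_2938704 was at 5.8e-04 with an offset of 50, 0.099 without both M2 arrays, 0.080 without both M3 arrays, and -0.20 to 0.11 when 1 array was left out. Il15 probe ILMN_2610234 was at 0.025 without both M2 arrays and -0.24 to 0.058 when 1 array was left out. Over the same omissions Il15 probe ILMN_1219869 ranged from -0.30 to 0.043, Il27 from -0.18 to 0.071 and Il13 from -0.015 to 0.16, and the cause was not tested. With equal array medians, 30.6% of the probes called were higher in MR-positive cells, against 52.2% in the quantile scaling. For the named list genes the alternatives were chosen after seeing the data. Detection limits Il12a, Il23a, Il10 and Il27, whose signals lay at or near that of the negative controls. It also limits Il15ra, of which no probe was detected on all 6 arrays. Il6 is limited on the MR-positive arrays, being undetected on M2 and at 1.08 times the lowest detected intensity on M3.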
